A study of Mus musculus with 8 samples.

Results

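The genes described here encode 9 members of the S100 family, small calcium-binding proteins made by vertebrate cells, in mouse kidney after injury and after cell transplantation. They were taken by symbol from the deposited gene table, as S100a1, S100a4, S100a6, S100a8, S100a9, S100a10, S100a11, S100a13 and S100g, which are 9 of its 34745 genes. All 9 had enough counts to be tested, as did 16576 genes in all. Messenger RNA of renal tissue from wild-type mice (genotype WT) was sequenced at day 14 in 8 libraries, namely sham (n = 2), uIRI (n = 3) and uIRI followed by transplantation of MSC (n = 3), the last group written uIRI+MSC. The abbreviations are not expanded in the labels. In kidney research they commonly mean unilateral ischaemia-reperfusion injury, the clamping and release of the blood supply of a kidney, and mesenchymal stem or stromal cells. Strain, age, the event from which days were counted, and the source and dose of the cells are not given in the labels. Whether replicate libraries stem from different mice is not stated either, so p-values measure only the spread between these samples. All 6 libraries of uIRI and uIRI+MSC are called injured.

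S100 proteins carry a pair of EF-hands, helix-loop-helix folds that hold calcium, and most work as dimers that open a binding surface when calcium rises. Inside the cell they bind annexins, myosin and other partners at membranes and the cytoskeleton. Several are also released and act on receptors of innate immune cells. In the kidney, S100g (calbindin-D9k) is known as a calcium buffer of the distal convoluted and connecting tubule, whereas S100a8 and S100a9 are known from neutrophils and monocytes.

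The libraries held 11592986 to 24300112 counts. Values below are CPM, or counts in every 1000000 counts of a library, after TMM scaling, a correction of library size, unless another unit is named. The share of counts from mitochondrial DNA was 14.2% in either sham library. It was 3.49 to 4.84% for uIRI, 6.07 and 6.24% for uIRI+MSC 1 and 2, and 11.3% for uIRI+MSC 3. Among the 3 transplanted libraries, uIRI+MSC 3 had the lowest value of 5 of the 9 members, a position it held for 40% of all tested genes. Proximal tubule genes marked every library as kidney, with Lrp2, the endocytic receptor megalin, at 4118 and 4227 CPM in sham and at least 247 CPM elsewhere. In whole tissue, fewer cells of a type and less RNA per cell cannot be told apart.

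uIRI kidney held more RNA of 7 of the 9 genes than sham and less of 1, S100g. Between uIRI and sham, edgeR's quasi-likelihood test at an adjusted p of 0.05 called 7 members higher, 1 lower and left S100a1 not passed. Among the 7, S100a8 and S100a9 entered the test only through the injured libraries. Of all tested genes 54.6% were called in this comparison, 28.3% higher and 26.3% lower. These are 4683 and 4361 genes, and with library size alone as the scaling they were 9044 and 1989, while the members stayed at 7 and 1. The median log2 change was 1.70 over the 9 members against 0.06 over all tested genes. No uIRI library overlapped the sham libraries for any member, with 7 genes above sham and 2 below it, where 77.1% of all tested genes did not overlap, 40.6% above and 36.5% below.

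**Figure D1:**
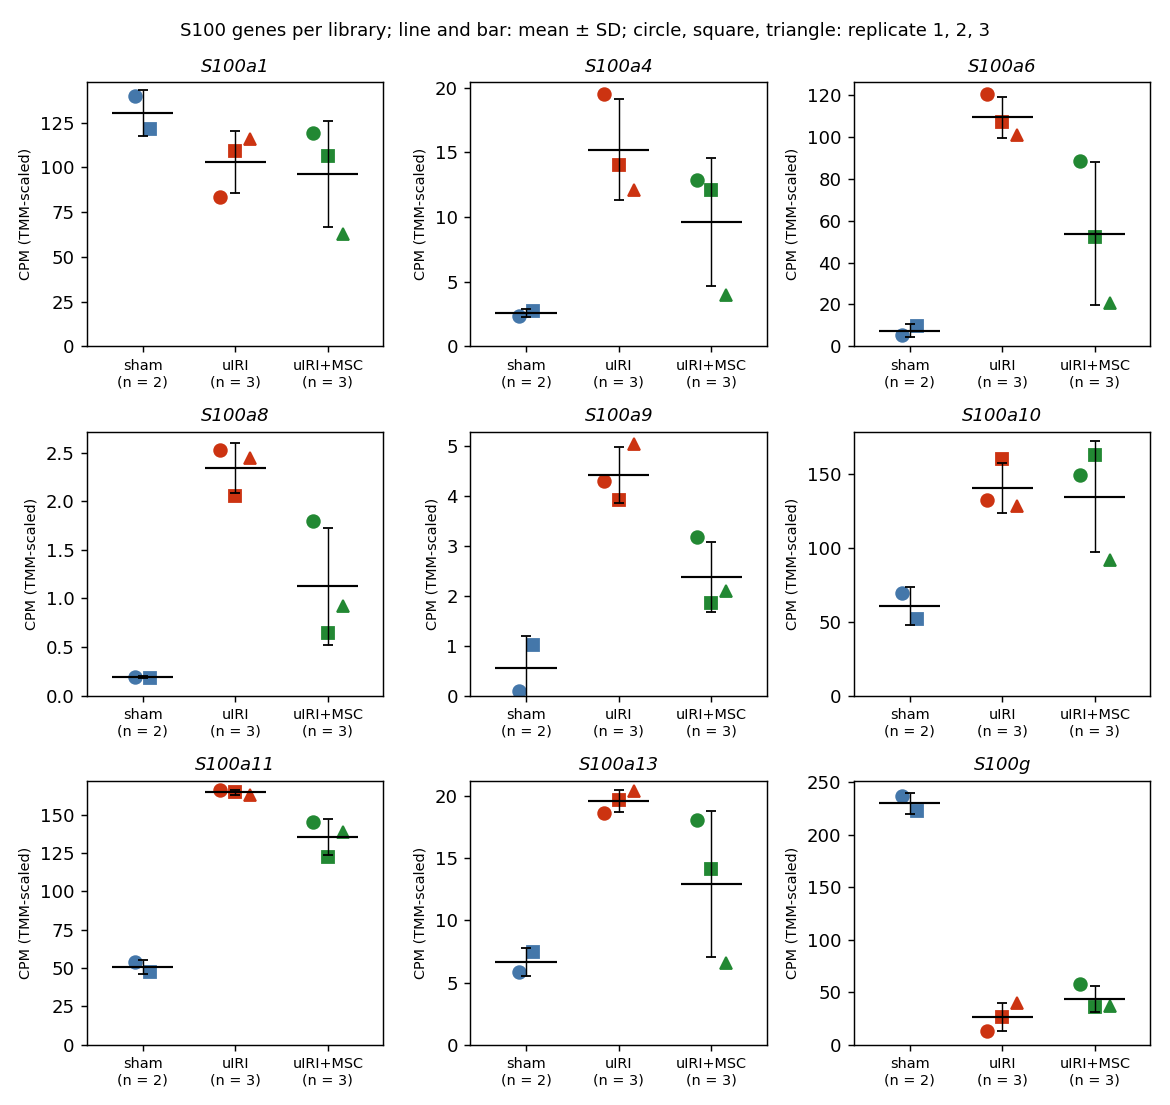
CPM of each S100 gene in each library, with a panel per gene and its own linear axis from 0; circles, squares and triangles are replicates 1, 2 and 3, the line is the group mean and the bar its SD (n = 2, 3 and 3). The uIRI libraries stand above sham in the panels of 7 genes and below it for S100a1 and S100g, and uIRI+MSC 3 is the lowest of its group for S100a1, S100a4, S100a6, S100a10 and S100a13.

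Among the members known from motile and dividing cells, S100a6 rose most. S100a6, or calcyclin, is a partner of annexins and of the ubiquitin ligase adaptor Cacybp. It stood at 5.15 and 9.58 CPM in sham, at 120, 107 and 101 in uIRI 1, 2 and 3, and at 88.8, 52.2 and 20.7 in uIRI+MSC 1, 2 and 3. The lowest uIRI library was thus more than 10 times the higher sham library, and the transplanted libraries lay between both groups without touching either. The uIRI against sham change was 14.8-fold, a log2 change of 3.89 ± 0.60 (SE; edgeR adjusted p = 0.000747). S100a4, a fibroblast and leukocyte protein that binds non-muscle myosin IIA, stood at 2.33 and 2.76 CPM in sham, 19.6, 14.0 and 12.1 in uIRI, and 12.9, 12.1 and 3.95 in uIRI+MSC. Every injured library was above sham, and the rise was 5.96-fold (log2 2.58 ± 0.52, edgeR adjusted p = 0.00297).

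S100a10 and S100a11, partners of annexins at membranes, were abundant in every library and rose less. S100a11 was the steadiest member, with 54.0 and 47.4 CPM in sham, 166, 165 and 163 in uIRI, and 145, 122 and 139 in uIRI+MSC. The 3 groups did not overlap, and the rise from sham to uIRI was 3.24-fold (log2 1.70 ± 0.14, edgeR adjusted p = 4.85e-05). S100a10, or p11, a member whose loops have lost calcium binding and which forms a complex with annexin A2, stood at 69.5 and 51.4 CPM in sham, 132, 160 and 128 in uIRI, and 149, 163 and 91.8 in uIRI+MSC. All 6 injured libraries exceeded sham, and uIRI and uIRI+MSC overlapped. Its rise in uIRI was 2.32-fold (log2 1.21 ± 0.26, edgeR adjusted p = 0.00427).

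The calgranulins S100a8 and S100a9, whose proteins pair as calprotectin and are released as alarm signals, rose from very few reads. S100a8 had 2 counts in each sham library, 75, 56 and 52 counts in uIRI 1, 2 and 3, and 43, 9 and 11 in uIRI+MSC 1, 2 and 3. In CPM this was 0.194 and 0.184 in sham, between 2.05 and 2.53 in uIRI and between 0.643 and 1.80 in uIRI+MSC, with no overlap among the groups. The ratio of pooled counts was 12.4 in uIRI over sham, with an exact 95% counting interval from 4.75 to 45.9, and the log2 change was 3.58 ± 0.62 (edgeR adjusted p = 0.00135). S100a9 had 1 and 11 counts in sham, 128, 107 and 107 in uIRI, and 76, 26 and 25 in uIRI+MSC. The sham libraries themselves differed, at 0.0972 and 1.01 CPM, while uIRI lay at 3.92 to 5.04 and uIRI+MSC at 1.86 to 3.18. Its log2 change of 2.96 ± 0.63 (edgeR adjusted p = 0.00396) became 2.14 without sham 1 and 5.44 without sham 2, and passed the test in both cases. Counting intervals cover counting error only. Both genes entered the test only through the injured libraries, so a rise was nearly fixed beforehand for S100a8 and favoured for S100a9.

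Tested markers of neutrophils were also higher in uIRI. Of 12 markers, 5 could be tested and all 5 rose, beside 28.3% of all tested genes. Among them was Csf3r, the receptor of granulocyte colony-stimulating factor, from 0.777 and 2.49 CPM in sham to 36.2, 26.6 and 35.4. Il1r2, Ltf and Cxcr2 had at most 4 counts in a sham library and the fifth marker at most 5. They entered the test only through the injured libraries, so their rise was nearly fixed beforehand. For Csf3r, with 8 and 27 sham counts, a rise was favoured in the same way. The 5 of 5 therefore cannot be read against the share of all tested genes. The summed level of the 12 markers was 1.85 and 3.87 CPM in sham, between 35.2 and 50.3 in uIRI and between 19.2 and 36.7 in uIRI+MSC. Csf3r made up most of this sum in every injured library. The markers differed among themselves. Mpo had 0 counts in all 8 libraries and Ly6g had 3, 0 and 2 counts in uIRI and 0 elsewhere, while Cxcr2 had 91, 40 and 37 in uIRI. Macrophage and monocyte markers were far more abundant, and all 11 tested rose, with a sum of 229 and 267 CPM in sham, between 3164 and 4794 in uIRI and between 1830 and 2460 in uIRI+MSC. The part of either cell type in the S100a8 and S100a9 result was not tested. Within uIRI the FPKM, the deposited level per length, of S100a8 was 0.433, 0.387 and 0.36 of that of S100a9, and 0.419, 0.256 and 0.326 in uIRI+MSC 1, 2 and 3. In CPM per kb of the longest annotated transcript, the ratios were 0.611, 0.545 and 0.506 in uIRI, and 0.59, 0.361 and 0.459 in uIRI+MSC. S100a9 was therefore the higher of the pair per length in all 6 injured libraries, whereas the sham FPKM ratios of 1.48 and 0.135 rested on a handful of reads.

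S100a13 and S100a1 lie head to head on chromosome 3 and did not move alike. S100a13, which serves the unconventional export of FGF1 and interleukin-1 alpha, stood at 5.83 and 7.46 CPM in sham, 18.6, 19.7 and 20.4 in uIRI, and 18.1, 14.2 and 6.55 in uIRI+MSC. All uIRI libraries were above sham, while uIRI+MSC 3 fell between the sham libraries. The rise in uIRI was 2.94-fold (log2 1.56 ± 0.38, edgeR adjusted p = 0.00825), and without sham 1 it no longer passed (log2 1.41, edgeR adjusted p = 0.068). S100a1, best known from heart muscle, where it binds calcium release channels, stood at 139.8 and 121.5 CPM in sham, 83.4, 109 and 116 in uIRI, and 119, 107 and 62.9 in uIRI+MSC. With TMM scaling every injured library was below sham, but the log2 change of -0.34 ± 0.26 in uIRI did not pass (edgeR adjusted p = 0.292). Its sign turned to 0.32 with library size alone as the scaling and to 0.31 on deposited FPKM. In FPKM, S100a1 stood at 81.3, 98.4 and 107 in uIRI, above the 78.7 and 74.2 of sham.

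S100g was the only member that fell. It stood at 237 and 223 CPM in sham, 13.0, 26.3 and 39.7 in uIRI 1, 2 and 3, and 58.0, 35.5 and 37.1 in uIRI+MSC 1, 2 and 3. Every injured library was far below sham, and uIRI 1 was the lowest. Its mean was 8.76-fold lower in uIRI than in sham (log2 -3.13 ± 0.41, edgeR adjusted p = 0.00033), a change below which lay 1.82% of all tested genes. S100g sits on the X chromosome within Ctps2, a nucleotide synthesis gene on the opposite strand, with 0 shared exons, and Ctps2 stayed between 44.0 and 52.5 CPM in all 8 libraries. Of 8 markers of the distal convoluted and connecting tubule, 6 also fell in uIRI and 0 rose (5 and 1 with library size alone), beside 26.3% of all tested genes lower. Their sum was 4645 and 4720 CPM in sham, between 772 and 1424 in uIRI and between 1307 and 1405 in uIRI+MSC. Trpm7, among those that fell, went from -0.56 to 0.11 on the log2 scale with library size alone. The fall was not particular to these segments, since all 10 proximal tubule markers fell, with a median log2 change of -2.75 against -1.64. The part of the distal convoluted and connecting tubule in the S100g result was not tested.

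**Figure D2:**
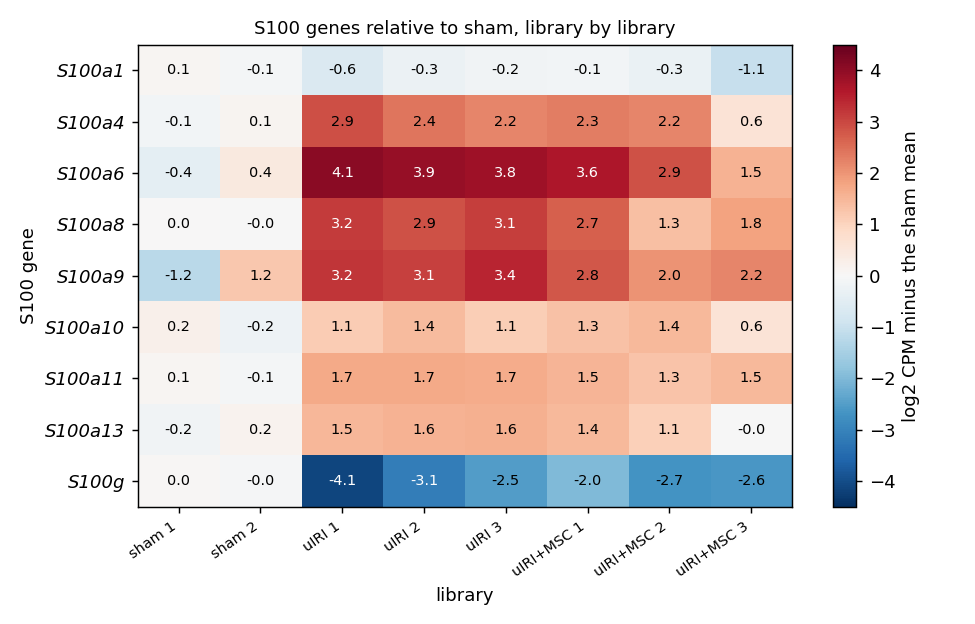
Log2 CPM of each S100 gene in each library minus the mean of log2 CPM in sham, with genes as rows and libraries as columns; red is above sham and blue below, and each cell prints its value. S100g is blue in all 6 injured libraries, and the uIRI+MSC 3 column is paler than its neighbours for S100a4, S100a6, S100a10 and S100a13.

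On GRCm38, 8 members lie on chromosome 3 between bases 90511034 and 93564643, and S100g lies at chrX:162961992-162964599 on the minus strand. S100a1 (chr3:90511034-90514392, minus strand), S100a13 (chr3:90514435-90524581, plus), S100a4 (chr3:90603771-90606045, plus), S100a6 (chr3:90612882-90624181, plus), S100a8 (chr3:90668978-90670035, plus) and S100a9 (chr3:90692632-90695721, minus) form a cluster. S100a11 (chr3:93520488-93526287, plus) and S100a10 (chr3:93555080-93564643, plus) follow 2825 kb further on. Neighbours within the cluster therefore included a gene that did not pass, S100a1, beside genes that rose. The 42 bases between the annotated starts of S100a1 and S100a13, at chr3:90514393-90514434, are shown on the plus strand because the whole interval upstream of both starts is this short, and they hold none of the words searched:
S100a1-S100a13 gap: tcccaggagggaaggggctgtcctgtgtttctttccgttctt

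Bases upstream of the annotated start were taken from RefSeq (GRCm38.p6), where 8 of the 9 members had an entry and S100a10 did not. The 250 bases before the RefSeq start were searched on both strands, overlaps allowed, for the TATA box spelled TATAAA, for the word of AP-1 factors, TGANTCA, for a word of C/EBP factors, TTNNGNAA, and for the NF-kappaB motif. Among 32851 promoters, 12.4% held the TATA box, 6.75% the AP-1 word, 36.8% the C/EBP word and 0.356% the NF-kappaB motif. Counted from the RefSeq start to the first base of the word, TATAAA stood 31 bases before S100a4 and 30 before S100a8. TGANTCA stood 136 and 38 bases before S100a11. The word TTNNGNAA was found once before S100a8 (117 bases), at 236 and 130 bases before S100a9, and at 243, 142, 79, 78 and 32 bases before S100g. No word was found before S100a1, S100a6 or S100a13. A match describes the letters only. The stretches below, 5′ to 3′ on the gene's strand with matches in capitals, are those of the steadiest gene that rose, of the pair that encodes calprotectin, and of the gene that fell. They are chr3:93520246-93520487 (plus), chr3:90668821-90668977 (plus), chr3:90695722-90695971 (minus) and chrX:162964600-162964849 (minus), and end before the most upstream annotated start, which leaves the TATAAA of S100a8 outside:
S100a11: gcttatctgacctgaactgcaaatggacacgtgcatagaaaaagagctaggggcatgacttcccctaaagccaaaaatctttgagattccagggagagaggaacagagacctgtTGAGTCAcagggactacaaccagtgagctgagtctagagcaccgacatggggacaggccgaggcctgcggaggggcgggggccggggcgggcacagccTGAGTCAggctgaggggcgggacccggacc
S100a8: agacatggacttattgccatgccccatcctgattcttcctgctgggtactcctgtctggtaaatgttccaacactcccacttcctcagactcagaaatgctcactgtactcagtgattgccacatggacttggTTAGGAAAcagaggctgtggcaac
S100a9: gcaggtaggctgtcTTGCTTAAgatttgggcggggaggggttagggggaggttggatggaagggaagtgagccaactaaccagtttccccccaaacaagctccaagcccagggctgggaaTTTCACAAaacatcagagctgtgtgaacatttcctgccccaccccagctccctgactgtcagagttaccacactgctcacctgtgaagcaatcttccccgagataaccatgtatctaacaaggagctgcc
S100g: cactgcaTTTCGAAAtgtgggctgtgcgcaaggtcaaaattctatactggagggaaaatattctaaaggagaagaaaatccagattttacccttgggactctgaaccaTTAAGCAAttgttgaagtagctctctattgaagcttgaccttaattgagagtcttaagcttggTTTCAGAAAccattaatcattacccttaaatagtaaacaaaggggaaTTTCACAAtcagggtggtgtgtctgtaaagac

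Levels of different genes can be compared only per length, and the deposited FPKM divides by more than the length of a transcript. The length behind FPKM equalled the summed length of a gene's distinct annotated exons for all 9 members, and for 65.3% of 9620 genes to within 1 base. For S100a6 this is 1930 bases where the longest annotated transcript has 783, so the FPKM of genes with several transcripts is low relative to S100a11, S100a13 and S100g, which have 1. Levels were therefore ordered by CPM per kb of the longest annotated transcript, a scale chosen after the data were seen. In sham, S100g was highest at a mean of 479, followed by S100a1 at 193, S100a11 at 99.3 and S100a10 at 88.2, and the last 2 of these overlapped. S100a6 (9.40) and S100a13 (9.29) overlapped well below them, S100a4 followed at 5.11, and S100a9 (1.07) and S100a8 (0.380) overlapped at the bottom.

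The order was different in injured kidney. In uIRI, S100a11 led at 322 CPM per kb, ahead of S100a10 at 205, S100a1 at 152 and S100a6 at 140, with S100a1 and S100a6 overlapping. S100g stood at 54.8, overlapping S100a4 (30.6), which overlapped S100a13 (27.4), and S100a9 (8.53) and S100a8 (4.70) came last. In uIRI+MSC, S100a11 led again at 265, without overlap. S100a10 (196) overlapped S100a1 (142), S100a1 overlapped S100g (90.8), and S100g overlapped S100a6 (68.8), which stood clear of S100a4 (19.3). S100a4 overlapped S100a13 (18.1), and S100a9 (4.59) overlapped S100a8 (2.25). On deposited FPKM, which understates the genes with several transcripts, S100g made up 64.3 and 65.8% of the 9 genes' sum in sham, 4.36, 8.18 and 12.2% in uIRI, and 17.7, 13.1 and 16% in uIRI+MSC. S100a11 took 13.8 and 13.1% in sham, between 47.0 and 52.3% in uIRI and between 41.5 and 56.1% in uIRI+MSC.

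**Figure D3:**
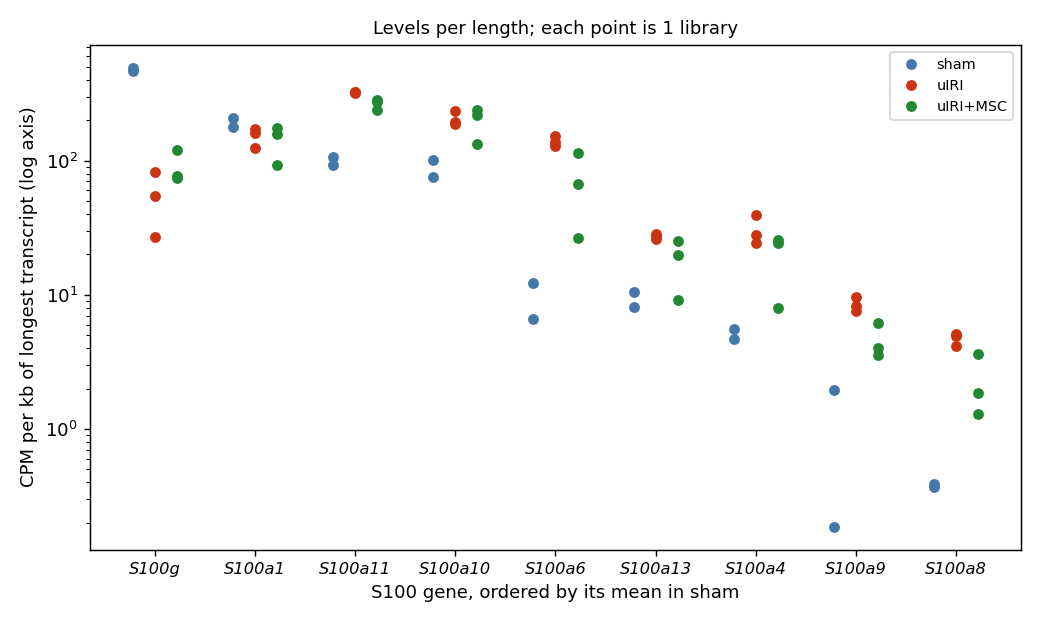
Level of each S100 gene in CPM per kb of its longest annotated transcript, on a log axis, with genes ordered by their sham mean and a point per library. S100g is the highest gene in sham (mean 479) and S100a11 in uIRI (mean 322), and S100a8 and S100a9 are the lowest in every group.

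Of the annexins among the intracellular partners of S100 proteins, Anxa1, Anxa2, Anxa5 and Anxa6 rose in uIRI, and Anxa11 fell with TMM scaling but not with library size alone. Among 14 partner genes, 8 rose, 4 fell and 2 did not pass, beside 28.3% of all tested genes higher and 26.3% lower. With library size alone as the scaling, 10 partners were higher, 1 was lower and 3 did not pass. With TMM, the median log2 change of the 14 was 1.09, against 0.06 over all tested genes. Anxa1, a partner of S100a11, rose by 3.30 ± 0.36 on the log2 scale (edgeR adjusted p = 0.000144), and Anxa2, the partner of S100a10, by 2.54 ± 0.22 (edgeR adjusted p = 6.41e-05). Anxa2 stood at 60.8 and 90.0 CPM in sham, 448, 462 and 408 in uIRI, and 373, 377 and 288 in uIRI+MSC. The ratio of S100a10 to Anxa2 in FPKM was 2.88 and 1.44 in sham, 0.745, 0.872 and 0.793 in uIRI, and 1.01, 1.09 and 0.805 in uIRI+MSC. In CPM per kb it was 3.8 and 1.9 in sham, 0.984, 1.15 and 1.05 in uIRI, and 1.33, 1.44 and 1.06 in uIRI+MSC. Relative to its partner, S100a10 was thus lower in all 6 injured libraries than in sham. The scales differ by a fixed length factor, so both had to give this order. S100a10 was the higher gene on both scales in sham and in uIRI+MSC 1 and 2, and the lower on both in uIRI 1. In uIRI 2, uIRI 3 and uIRI+MSC 3, which gene was higher depended on the scale. Ahnak, a scaffold bound by the S100a10 and annexin A2 complex, rose by 1.66 ± 0.24, and Myh9, the myosin bound by S100a4, by 1.62 ± 0.20 (log2, edgeR adjusted p = 0.000558 and 0.000255). Capzb also rose, and so did Il1a, an export cargo of S100a13, which had 0 counts in both sham libraries and 111, 45 and 50 in uIRI. Il1a thus entered the test only through the injured libraries.

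The partner that fell under both scalings was Fgf1, the other export cargo of S100a13. It stood at 661 and 454 CPM in sham, 57.6, 86.5 and 68.9 in uIRI, and 124, 96.3 and 155 in uIRI+MSC. Its log2 change in uIRI was -2.97 ± 0.26 (edgeR adjusted p = 6.4e-05), opposite in sign to S100a13. Cacybp, the partner of S100a6, had a log2 change of -0.63 ± 0.12 (edgeR adjusted p = 0.00268), which turned to 0.040 with library size alone and did not pass (edgeR adjusted p = 0.789). Anxa11 likewise went from -0.42 to 0.24 on the log2 scale and Ppp5c, a phosphatase, from -0.74 to -0.074, and neither passed with library size alone (edgeR adjusted p = 0.142 and 0.605). Sugt1 and Hltf did not pass with TMM and were higher with library size alone.

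Of 7 tested receptors for released S100 proteins, 2 rose in uIRI, 2 fell and 3 did not pass, beside 28.3% of all tested genes higher and 26.3% lower. With library size alone as the scaling, 4 were higher, 1 lower and 2 not passed. Their median log2 change was 0.30. Ager, which encodes RAGE, the receptor for advanced glycation end products, went from 0.874 and 1.57 CPM in sham to 6.09, 6.09 and 7.35 in uIRI, a log2 change of 2.40 ± 0.37 (edgeR adjusted p = 0.00076). Cd14, the co-receptor of TLR4, rose by 3.55 ± 0.24 (log2, edgeR adjusted p = 2.85e-05). Tlr4 itself was 0.194 and 3.59 CPM in the sham libraries and 5.09 to 6.12 in uIRI, and its log2 change of 1.56 ± 0.86 did not pass (edgeR adjusted p = 0.154). Cd36, a scavenger receptor and fatty acid transporter, fell from 754 and 440 CPM to 86.9, 77.3 and 70.6, and Bsg (basigin) had a log2 change of -0.87 ± 0.18 (edgeR adjusted p = 0.00377), which was -0.20 and did not pass with library size alone (edgeR adjusted p = 0.35). Ly96 and Alcam did not pass with TMM and were higher with library size alone.

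Genes of renal calcium transport and its regulation went both ways. Among 12 of them, 7 fell in uIRI, 2 rose and 3 did not pass, beside the 26.3% of all tested genes that were lower and the 28.3% that were higher. With library size alone as the scaling, 5 were lower and 5 higher. Their median log2 change was -0.98, against 0.06 over all tested genes. Calb1 (calbindin-D28k), the other cytosolic calcium buffer of these cells, stood at 510 and 531 CPM in sham, 7.74, 26.0 and 28.6 in uIRI, and 68.0, 29.9 and 103 in uIRI+MSC. Calb1 was lowest in uIRI 1, as were S100g, Kl, Vdr and the proximal tubule gene Lrp2, so this position was not particular to the calcium buffers. The log2 change of Calb1 in uIRI was -4.65 ± 0.61 (edgeR adjusted p = 0.000355). Vdr, the vitamin D receptor, changed by -2.14 ± 0.28 and Kl (klotho) by -3.05 ± 0.41 (log2, edgeR adjusted p = 0.000342 and 0.000386), and the parathyroid hormone receptor Pth1r and the vitamin D-degrading enzyme Cyp24a1 also fell. The sodium-calcium exchanger Slc8a1 and the calcium-sensing receptor Casr were lower with TMM (log2 -0.89 and -1.06) and did not pass with library size alone (log2 -0.23 and -0.41, edgeR adjusted p = 0.279 and 0.138). The entry channel Trpv6 moved the other way, from 1.17 and 1.38 CPM to 9.26, 7.55 and 8.19 (log2 2.70 ± 0.25, edgeR adjusted p = 7.86e-05), as did the plasma membrane calcium pump Atp2b1 (log2 0.47 ± 0.16, edgeR adjusted p = 0.0335). Trpv5, the main apical entry channel of the segment, stood at 22.5 and 23.4 CPM in sham and 20.5, 30.3 and 30.0 in uIRI and did not pass, and neither did Atp2b4 and Cyp27b1, while all 3 were higher with library size alone.

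**Figure D4:**
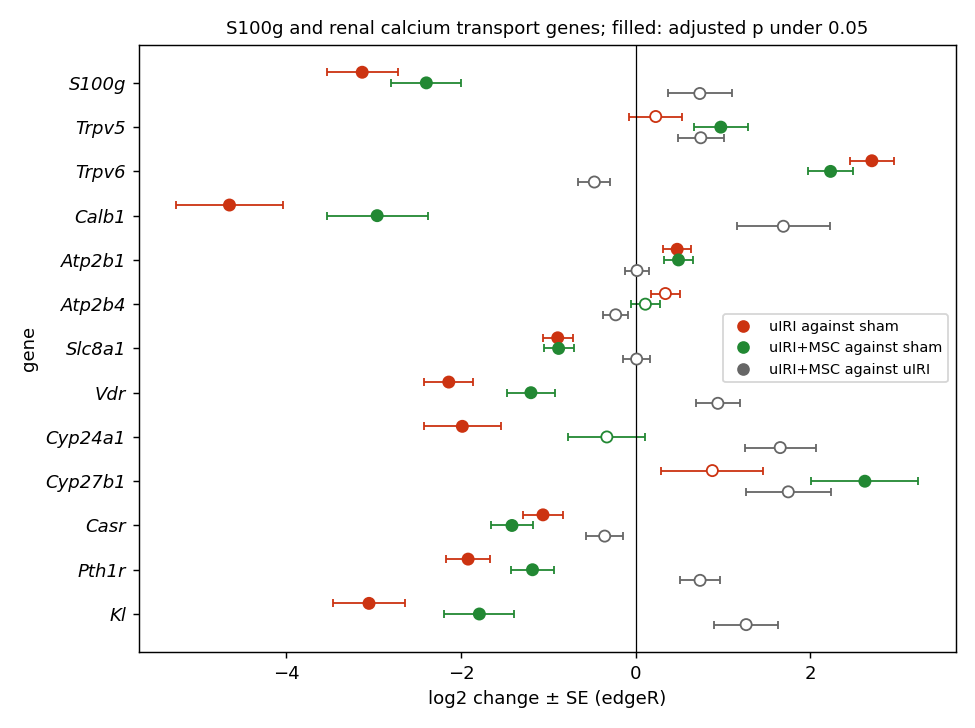
Log2 change ± SE from edgeR for S100g and 12 renal calcium transport genes, in red for uIRI against sham, green for uIRI+MSC against sham and grey for uIRI+MSC against uIRI; filled points have an adjusted p under 0.05. S100g (-3.13) and Calb1 (-4.65) lie left of 0 and Trpv6 (2.70) right of it in uIRI against sham, and every grey point is open.

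Of 10 other family members listed, 8 were in the table and 4 could be tested, of which 2 rose in uIRI and 2 did not pass. S100a14, an epithelial member, stood at 0.291 and 1.57 CPM in sham, 8.62, 5.94 and 9.09 in uIRI, and 4.19, 3.72 and 4.03 in uIRI+MSC, with no overlap among the groups (uIRI against sham log2 3.06 ± 0.52, edgeR adjusted p = 0.00129). S100a7a had 1 count over sham and 105 over uIRI, a ratio of 28.4 with an exact 95% counting interval from 4.99 to 1130 (edgeR adjusted p = 0.00171). S100a3, with 2 counts over sham and 49 over uIRI, had a ratio of 6.63 with an interval from 1.74 to 56.3 and did not pass (edgeR adjusted p = 0.0581). S100a16 was the only one of the 4 above 30 CPM in every library, and its log2 change of 0.49 ± 0.20 did not pass (edgeR adjusted p = 0.0684). S100a7a and S100a3 entered the test only through the injured libraries, so a rise was nearly fixed beforehand. For S100a14, with 3 and 17 sham counts, it was favoured in the same way. With library size alone all 4 were higher. Among 8 tested calcium sensors and buffers of other EF-hand families, 2 rose, 3 fell and 3 did not pass, beside the same 28.3 and 26.3% of all tested genes, and with library size alone 4 were higher and 1 lower. Among those that rose was Efhd2, 6.24-fold.

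Markers of other cells that can hold S100 proteins also moved. All 10 fibroblast markers rose, with a sum of 352 and 538 CPM in sham, between 3758 and 8887 in uIRI and between 2234 and 4057 in uIRI+MSC, as did all 10 markers of injured tubule, whose sum went from 1240 and 1705 CPM in sham to between 7541 and 9936 in uIRI and between 12960 and 18380 in uIRI+MSC. Spp1 alone held 4509 to 6424 CPM of the injured tubule sum in uIRI and 9026 to 13178 in uIRI+MSC. None of these 10 markers passed in uIRI+MSC against uIRI. There, 4 lay above uIRI without overlap and 1 below, beside 14.1% and 12.7% of all tested genes. All 10 proximal tubule markers fell in uIRI. Of all tested genes, 28.3% were higher in uIRI and 26.3% lower. Of 5 Schwann cell markers, 2 rose and 3 did not pass (4 rose with library size alone), with sums of 26.0 and 27.1 CPM in sham, between 57.5 and 78.2 in uIRI and between 46.9 and 50.5 in uIRI+MSC. None of 6 keratinocyte and urothelial markers passed. Their sum differed within each group, at 1.56 and 58.5 CPM in sham, 19.8 to 92.5 in uIRI, 0.628 and 0.643 in uIRI+MSC 1 and 2 and 36.9 in uIRI+MSC 3. Adipocyte markers could not be tested, with sums of at most 2.02 CPM, and 1 skeletal muscle marker could be tested and did not pass. The part of these cell types in the S100 results was not tested.

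Transplantation of MSC was compared with injury alone to ask whether the S100 genes differed when cells had been given. No member passed. In uIRI+MSC against uIRI, edgeR called 0 members and 0 of all tested genes (0%), with 3 members and 3418 genes at an unadjusted p under 0.05. DESeq2 called 1364 genes but 0 members, and limma-voom called 0 genes. The smallest edgeR adjusted p of a member was 0.194, for S100a8. The median log2 change was -0.59 over the 9 members and -0.01 over all tested genes.

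The libraries of 5 members did not overlap between these groups, all lower after transplantation, where 26.9% of all tested genes did not overlap and 12.7% were lower without overlap. S100a6 had a log2 change of -1.01 ± 0.44 (edgeR adjusted p = 0.236), which was -0.62 without uIRI+MSC 3. S100a8 had -1.01 ± 0.38 and S100a9 -0.87 ± 0.44 (edgeR adjusted p = 0.194 and 0.3). S100a11 had -0.28 ± 0.12 and S100a13 -0.59 ± 0.31 (edgeR adjusted p = 0.22 and 0.329). S100a4 overlapped, at -0.65 ± 0.39 (edgeR adjusted p = 0.382). S100g was the one member with a positive log2 change, 0.73 ± 0.36 (edgeR adjusted p = 0.292), and its groups overlapped because uIRI 3, at 39.7 CPM, exceeded uIRI+MSC 2 and 3. For S100a1 and S100a10 the log2 changes were -0.09 ± 0.24 and -0.06 ± 0.22, and without uIRI+MSC 3 they were 0.15 and 0.16.

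That library weighed on several members. The values of uIRI+MSC 3 were below the lower of uIRI+MSC 1 and 2 by 3.01 times for S100a4, 2.51 for S100a6, 2.14 for S100a13, 1.69 for S100a1 and 1.62 for S100a10. These 5 members were thus lower there by at least 1.4 times, as were 11.6% of all tested genes. For S100a8, S100a9, S100a11 and S100g the lowest of the group was uIRI+MSC 2. The library uIRI+MSC 3 had the fewest counts, 11592986, and the highest mitochondrial share of its group, 11.3%. The part of depth and of the mitochondrial share in these values was not tested.

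**Figure D5:**
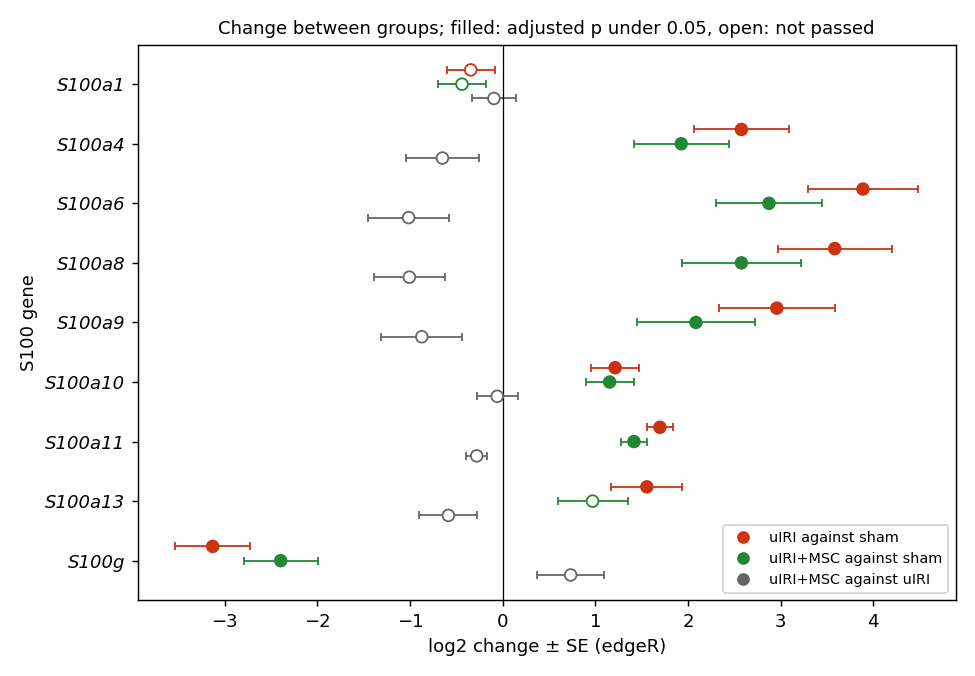
Log2 change ± SE from edgeR for each S100 gene, in red for uIRI against sham, green for uIRI+MSC against sham and grey for uIRI+MSC against uIRI; filled points have an adjusted p under 0.05. The red and green points of S100a6 lie at 3.89 and 2.87, those of S100g at -3.13 and -2.40, and all grey points are open.

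Kidney that had received MSC still differed from sham in most S100 genes. In uIRI+MSC against sham, edgeR called 6 members higher and 1 lower, and S100a1 and S100a13 did not pass. Among the 6, S100a8 and S100a9 entered the test only through the injured libraries. Of all tested genes 42.4% were called, 22.1% higher and 20.3% lower. With library size alone as the scaling, 7400 genes were higher and 1352 lower in place of 3671 and 3358, and the members were 7 higher and 1 lower. The median log2 change of the members was 1.42 against 0.03 over all tested genes. Libraries did not overlap for 6 members above and 2 below sham, against 64.3% of all tested genes, 33.1% above and 31.2% below. This comparison shares its sham libraries with uIRI against sham and its transplanted libraries with the preceding one.

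S100a11 rose 2.67-fold over sham (log2 1.42 ± 0.14, edgeR adjusted p = 0.00018) and S100a6 7.33-fold (log2 2.87 ± 0.57, edgeR adjusted p = 0.00449). S100a10 rose by 1.16 ± 0.26, S100a4 by 1.93 ± 0.51, S100a8 by 2.58 ± 0.64 and S100a9 by 2.09 ± 0.64 on the log2 scale (edgeR adjusted p = 0.00779, 0.0159, 0.0123 and 0.028). S100g was 5.26-fold lower than in sham (log2 -2.40 ± 0.40, edgeR adjusted p = 0.00198). The count of called members fell from 7 to 4 without sham 1, when S100a4, S100a8 and S100a9 no longer passed, and to 4 without sham 2, when S100a4, S100a8 and S100a10 did not. S100a9 had a log2 change of 1.28 without sham 1 (edgeR adjusted p = 0.0973) and of 4.58 without sham 2 (edgeR adjusted p = 0.00527). It also missed the threshold without uIRI+MSC 1 (edgeR adjusted p = 0.0764). S100a13, at 0.97 ± 0.38 with an edgeR adjusted p of 0.068, passed without uIRI+MSC 3 (log2 1.31, edgeR adjusted p = 0.00267).

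Of the 12 calcium transport genes, 4 were higher than sham after transplantation, 6 lower and 2 did not pass. Of all tested genes, 22.1% were higher and 20.3% lower. Calb1 was lower by 7.77-fold (log2 -2.96 ± 0.58, edgeR adjusted p = 0.00407). Cyp27b1, which makes active vitamin D, stood at 4.47 and 10.8 CPM in sham, 4.95, 20.8 and 16.4 in uIRI, and 39.6, 58.2 and 43.7 in uIRI+MSC, the last being above sham (log2 2.62 ± 0.61, edgeR adjusted p = 0.00907). Cyp24a1, which degrades it, was 213 and 209 CPM in sham, 25.1, 91.8 and 42.9 in uIRI, and 158, 202 and 143 in uIRI+MSC, the last of which did not pass against sham (edgeR adjusted p = 0.573). Beside the same 22.1% and 20.3%, the 7 receptors gave 2 higher, 2 lower and 3 not passed. The 14 partners gave 7 higher, 4 lower and 3 not passed. With library size alone, the higher and lower genes were 5 and 5 for calcium transport, 3 and 1 for receptors and 10 and 1 for partners.

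The genes most like each member were sought by Pearson r of log2 CPM over the 8 libraries among 7348 genes with a mean FPKM of at least 5. These libraries share the group structure and their own depth, so r describes resemblance only. For S100a6 the closest included Cdc42ep1 (r = 0.996) and Id3 (0.990), and 10% of the genes compared had r over 0.9. S100a11 was closest to Cygb (0.998), Lbp (0.998) and Cebpd (0.997), with 14.9% over 0.9. For S100g these were Atp5sl (0.993), Lace1 (0.992) and Pgam2 (0.991), with 21.7% over 0.9. S100a1 and S100a13 had the fewest such genes, 2.67 and 2.45%, led by Leng1 (0.991) and by Stoml1 (0.979). The remaining leaders were Shc1 for S100a4 (0.986, after an uncharacterised gene), Plod1 for S100a8 (0.988), Bcam for S100a9 (0.993) and Thumpd1 for S100a10 (0.988).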

How the data were processed

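Per the file headers, the authors' table pairs raw read counts of every gene with FPKM, library by library. The sources used here do not name the counter, annotation release or strand handling. The deposited FPKM served for ratios, shares and alternatives. Coordinates are on GRCm38. The submitters' processing notes name the aligners HISAT2 2.0.4 and Bowtie2 2.2.6, StringTie 1.3.3b, SAMtools 1.9, edgeR 3.2.0 and FastQC 0.10.1, without their roles.

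Genes were kept by filterByExpr (minimum count 10), scaled by TMM and fitted over all 8 libraries with edgeR 4.0.16 under R 4.3.3 (glmQLFit with legacy=TRUE, glmQLFTest, 5 residual degrees of freedom). P-values were adjusted by Benjamini and Hochberg over all 16576 tested genes of a comparison, at 0.05. Log2 CPM of single libraries has a prior count of 2. The fit was tested on simulated data. Depth of 11592986 to 24300112 counts limits S100a8, S100a9, S100a3 and S100a7a, which had under 15 counts in sham libraries. Python 3.11.15 with matplotlib 3.10.9 drew the figures.

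The members, the gene lists and the rule for named genes were chosen with earlier results of these data known. That rule names all 9 members, any tested gene of the lists of other S100 genes, receptors, partners and calcium transport, the 4 most abundant tested genes of each other list, and the 3 genes most like each member. Mpo, Ly6g and Ctps2 aside, which were examined as markers or as an overlapping gene, names follow it, and a few genes it covers are not reported here. A planned comparison of protein sequences was not made.

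Alternatives were DESeq2 1.42.0, limma-voom and limma on log2(FPKM + 1) or log2(FPKM + 0.1) (limma 3.58.1), legacy=FALSE, robust dispersions, median-of-ratios factors, library size alone, no filter, at least 50 counts in 2 libraries, only the 2 groups compared, a replicate block, and leaving out each library. Where that left sham with 1 library, it was assumed to vary like the other groups.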

Additional observations from a re-analysis of the deposited data

How the results depend on the processing

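The 8 members called in uIRI against sham were 8 under every other test, scaling, filter and design tried, and 7 to 8 when each library was left out. In uIRI+MSC against uIRI the count was 0 throughout, 0 to 0 on leaving out each library. In uIRI+MSC against sham the 7 members were 4 to 8 on leaving out each library, 4 without sham 1 or sham 2, and 6 to 8 otherwise: S100a4 did not pass in limma-voom (log2 1.82, adjusted p = 0.0687), nor S100a9 in an edgeR fit of only the 2 groups (log2 2.08, adjusted p = 0.0597). With the replicate block, edgeR called 8, 0 and 6 members in the 3 comparisons, losing S100a9 in the last (log2 2.10, adjusted p = 0.0762), and 7959 against 9044 genes of the table in uIRI against sham. The labels do not say that a replicate number marks a shared animal, batch or day, so the numbers were not treated as pairs. Same-numbered libraries had correlations of -0.209 to 0.111 in their deviations from group means. The deviations of the 2 sham libraries mirror each other, so these correlations cannot decide on pairing.

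Signs turned for 2 members that passed in no comparison concerned. The log2 change of S100a1 in uIRI against sham was 0.31 on log2(FPKM + 1), 0.31 on log2(FPKM + 0.1) and 0.32 with library size alone, and in uIRI+MSC against sham 0.026, 0.026 and 0.084. In uIRI+MSC against uIRI, S100a1 ran from -0.28 to 0.15 on leaving out each library, the highest without uIRI+MSC 3. S100a10 ran from -0.22 to 0.16, and was 0.04 without uIRI 2 and 0.16 without uIRI+MSC 3. Library size alone moved the median of all tested genes from 0.06 to 0.73 in uIRI against sham, from -0.01 to -0.16 in uIRI+MSC against uIRI and from 0.03 to 0.55 in uIRI+MSC against sham, and the calls in the first from 4683 higher and 4361 lower to 9044 higher and 1989 lower, and in the last from 3671 and 3358 to 7400 and 1352. The listed genes under library size alone, given beside their counts, were examined after the data were seen. With a pseudocount of 1 on FPKM, the log2 change of S100a8 in uIRI against sham was 1.73. Without sham 1, 3938 genes of the table were called in uIRI+MSC against sham, in place of 7029. In uIRI+MSC against uIRI, leaving out uIRI 1, uIRI 3, uIRI+MSC 1 or uIRI+MSC 3 gave 8, 3, 2 and 2 genes in place of 0, and DESeq2 gave 1364. The cause was not tested.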
